A study of Mus musculus with 30 samples.

Results

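Pressure overload was examined in mouse hearts labelled as cardiac-specific Cpt1a knockouts. The 8 libraries, of 30 in the series, were chosen by their genotype and treatment labels and the names of their columns in the count table. KO_TAC holds 4 hearts labelled knockout and collected 8 weeks after transverse aortic constriction (TAC), in which a microclip narrows the aorta and raises the load on the left ventricle. KO_sham holds 4 hearts with the same genotype label, collected 8 weeks after a sham operation. Both groups carry the knockout by their labels, and the operation is the labelled difference between them. The clip was 0.016 or 0.018 inch wide, and which mouse had which is not given in the sources used here, nor are the Cre driver, strain, age and sex. The genotype label says knockout, while the series' design text speaks of a cardiac-specific knockdown. Titles of the KO_TAC samples name TAC and sham together, and their treatment labels and column names give TAC. Hearts labelled floxed served as controls, 4 sham-operated (FF_sham) and 4 with TAC (FF_TAC). They entered the same fit, lent it their spread and gave the contrast between genotypes. Poly(A) RNA with an integrity number above 7 was sequenced with a strand-specific kit. The labels name the replicates without saying from which litters, days or batches they came, so the p-values measure the spread between these samples.

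A heart that pumps against a narrowed aorta thickens its walls, and its cardiomyocytes take up genes of the fetal heart again, among them natriuretic peptides and beta-myosin heavy chain. Fibroblasts lay down collagen and matricellular proteins, and the muscle burns less fatty acid and more glucose. Cpt1a encodes the isoform of carnitine palmitoyltransferase 1 best known from the liver. The enzyme couples long-chain fatty acids to carnitine at the outer mitochondrial membrane, the step that lets them enter for oxidation, and the adult heart mainly uses the muscle isoform, Cpt1b. Expression is given as CPM, the counts of a gene relative to the scaled total of its library. CPM is not corrected for gene length, so levels are compared between libraries and not between genes. A gene is said to have risen or fallen only where the quasi-likelihood F test of edgeR gave a p under 0.05 after Benjamini-Hochberg adjustment over all genes tested, and log2 fold changes (KO_TAC against KO_sham) are given ± their standard error.

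Cpt1a was at 22.4, 46.3, 20.4 and 23.7 CPM in KO_sham 1 to 4 and at 19.6, 11.9, 14.1 and 11.1 CPM in KO_TAC 1 to 4. The library labelled KO_sham 2 was the highest of the 8, and all 4 KO_TAC libraries lay below all 4 KO_sham libraries. The difference was −0.98 ± 0.33, adjusted p = 0.0383 in edgeR, and leaving out 1 knockout library ended the call in 5 of 8 cases. Without the library labelled KO_sham 2 the difference was −0.65 ± 0.30, adjusted p = 0.135 in edgeR. With a term for low haemoglobin, defined below, it was −0.92 ± 0.38, adjusted p = 0.205 in edgeR. The level in the library labelled KO_sham 2 goes against its genotype label, since the FF_sham libraries ran at 37.8 to 52.7 CPM. FF_TAC 1 to 4 stood at 48.9, 20.3, 16.2 and 33.99 CPM. The libraries labelled FF_TAC 2 and 3 lay below every KO_sham library, FF_TAC 2 barely so, at 20.32 against 20.35 CPM in KO_sham 3. Beside the KO_TAC libraries, which share their operation, FF_TAC 2 lay above all and FF_TAC 3 within their range. Cpt1a thus leaves the genotype label of these floxed libraries unsettled. Cpt1a therefore does not separate the labelled genotypes over all 16 libraries, and genotype is used below as labelled. Cpt1b, the muscle isoform, was at 6.68, 11.7, 7.02 and 9.56 CPM in KO_sham 1 to 4 and at 7.14, 1.58, 2.11 and 5.54 CPM in KO_TAC 1 to 4. Its log2 fold change was −1.07 ± 0.42, adjusted p = 0.0673 in edgeR, its groups overlapped, and it is uncertain because its exons overlap those of Gm44502 on the same strand.

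Total counts ran from 16470938 to 20734227 in KO_sham and from 14839758 to 18356912 in KO_TAC. Haemoglobin transcripts, from red cells left in the tissue, summed to 678, 476 and 441 CPM in KO_sham 1, 3 and 4, to 1.4 CPM in the library labelled KO_sham 2, and to 51.1, 12.9, 4.14 and 3.89 CPM in KO_TAC 1 to 4. Low haemoglobin therefore moved with the operation in 7 of 8 libraries. The mean log2 CPM of 26 early response genes, which are induced within minutes to hours of a stimulus, was 3.21, 3.31 and 3.41 in KO_sham 1, 3 and 4, 7.2 in the library labelled KO_sham 2, and 7.68, 6.58, 6.31 and 6.95 in KO_TAC 1 to 4. The libraries labelled FF_TAC 2 and 3, at 3.41 and 1.74 CPM of haemoglobin, belonged to the same low class below 100 CPM. Every gene list apart from the cell type markers is given with and without a term for that class, as are most genes described library by library. Marker lists are given with the term in part. Some results are also given without the library labelled KO_sham 2, though not every result that this library shifts. Mitochondrial transcripts made up 21.6% to 24.4% of counts in KO_sham and 12.1% to 18.7% in KO_TAC. The atrial myosin light chain Myl7 stood at 0.277, 602, 0.364 and 393 CPM in KO_sham 1 to 4 and at 3147, 0.751, 0.612 and 0.119 CPM in KO_TAC 1 to 4, so atrial transcripts were high in 2 sham libraries and 1 TAC library. The strand setting of the counting is not given in the sources used here, so values are uncertain for the genes named below whose exons overlap a gene on the other strand in GENCODE M21, namely Abcc9, Acadvl, Acsl1, Acsl5, Adamts4, Atf5, Atp2a2, Bckdha, Bdh1, Ccn2, Col4a1, Csf2, Cxcl10, Dbp, Des, Echs1, Ereg, Fosl1, Fstl3, Gm47644, Hadha, Icam1, Kcnd3, Lox, Loxl2, Loxl3, Ltbp2, Manf, Map1a, Mef2a, Mt2, Myh6, Myh7, Myh7b, Ndufs1, Notch3, Nppa, Oasl1, Pdgfra, Pfkfb1, Pfkfb2, Pfkm, Pfkp, Pi16, Pln, Selp, Shmt2, Slc2a1, Slc37a1, Sqstm1, Tef, Tgfb2, Tgfb3, Timp3, Timp4, Ttn, Vat1, Xirp2 and mt-Co1, and for those that overlap one on their own strand, namely Col3a1, Ecm1, Loxl2, Manf, Pdgfra, Pfkfb2 and Pfkm.

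**Figure D1:**
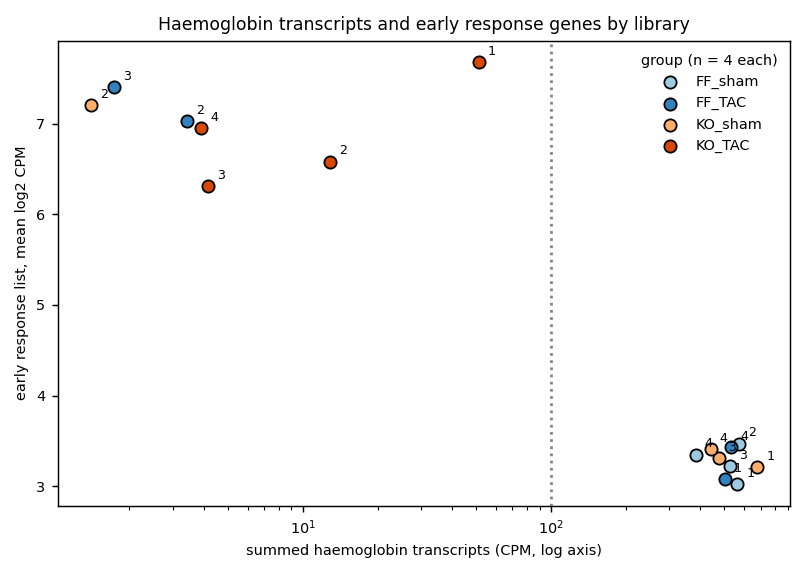
Haemoglobin transcripts (x axis, summed CPM, log axis) against the mean log2 CPM of 26 early response genes (y axis) in the 16 libraries of the 4 groups, 1 point each, with a dotted line at 100 CPM. All 4 KO_TAC libraries and the library labelled KO_sham 2 lie left of the line and above 6, whereas KO_sham 1, 3 and 4 lie right of it, below 3.5.

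Of 15596 genes tested, 4031 changed between KO_TAC and KO_sham, which is 25.8%. A rise was called for 2233 genes (14.3%) and a fall for 1798 (11.5%). The 4 KO_TAC libraries lay wholly above the 4 KO_sham libraries for 1727 genes (11.1%) and wholly below for 1869 (12%). The haemoglobin term adds 1 effect of that class, common to all groups. It is estimated from KO_sham and FF_TAC, the groups that hold libraries of both classes, and so rests on the libraries labelled KO_sham 2 and FF_TAC 2 and 3. Cpt1a goes against the genotype label in the library labelled KO_sham 2 and leaves it unsettled in FF_TAC 2 and 3. No KO_TAC library was haemoglobin-high, so the operation was not compared within that class in knockout hearts. With the term, 135 genes rose (0.866%) and 138 fell (0.885%). The term kept the sign of 4025 of the 4031 called genes, brought their log2 fold changes to a median of 0.79 of the value without it, and raised the median standard error from 0.197 to 0.237. Without the library labelled KO_sham 2, 1797 of 15919 genes rose (11.3%) and 1379 fell (8.66%). The count of called genes was 2540 without KO_sham 3, 2547 without KO_sham 4, 2653 without KO_TAC 2, 1956 without KO_TAC 3 and 6441 without KO_TAC 1. Gene lists are described by how many members rose or fell and by their median log2 fold change, beside the median of 0.02 over all genes tested. Counts near the shares over all genes tested, 14.3% higher and 11.5% lower, do not set a list apart. In whole-tissue RNA, fewer cells of a type and less RNA per cell cannot be told apart.

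**Figure D2:**
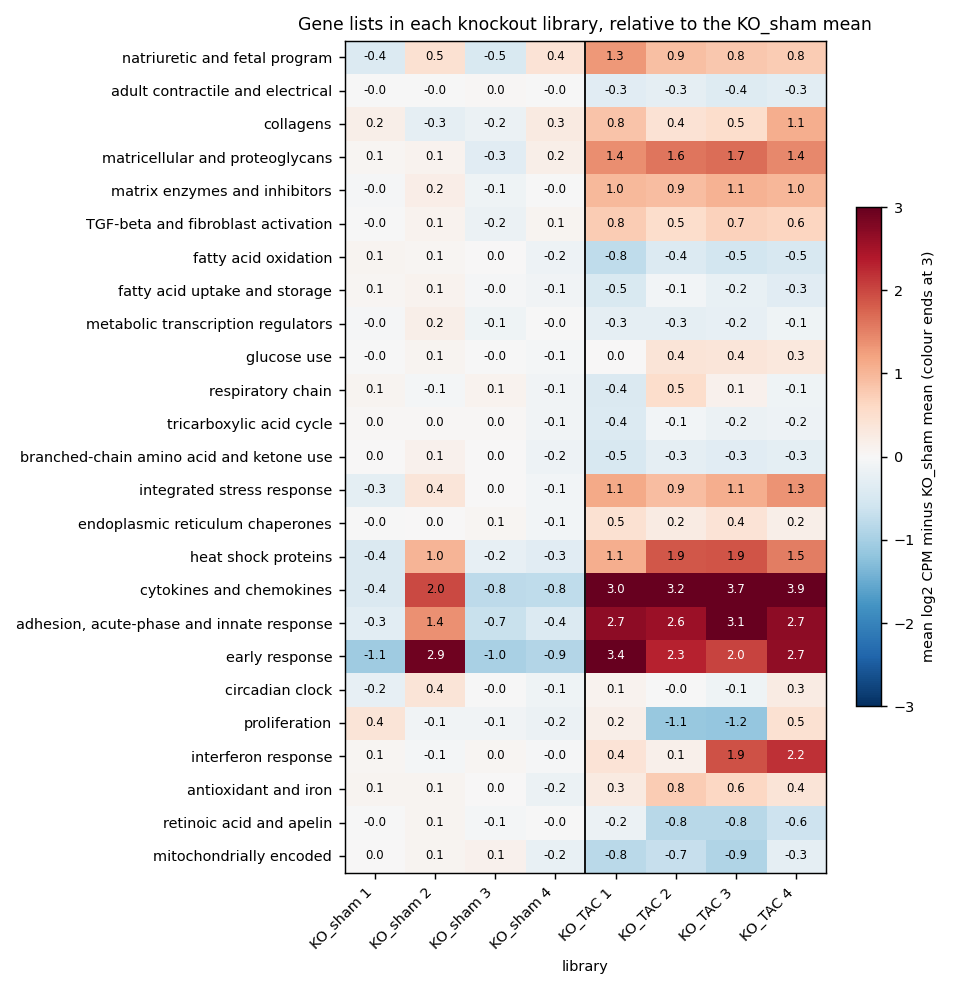
Mean log2 CPM of each gene list in the 8 knockout libraries (columns), minus the KO_sham mean of that list (rows, colour scale ending at 3). The cytokine, adhesion and early response rows are high in KO_TAC 1 to 4 and raised in the library labelled KO_sham 2. Of these rows, it reaches the KO_TAC range in the early response row alone. The matricellular, matrix enzyme and fatty acid oxidation rows separate KO_TAC from all 4 KO_sham libraries, as do the cytokine and adhesion rows.

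**Figure D3:**
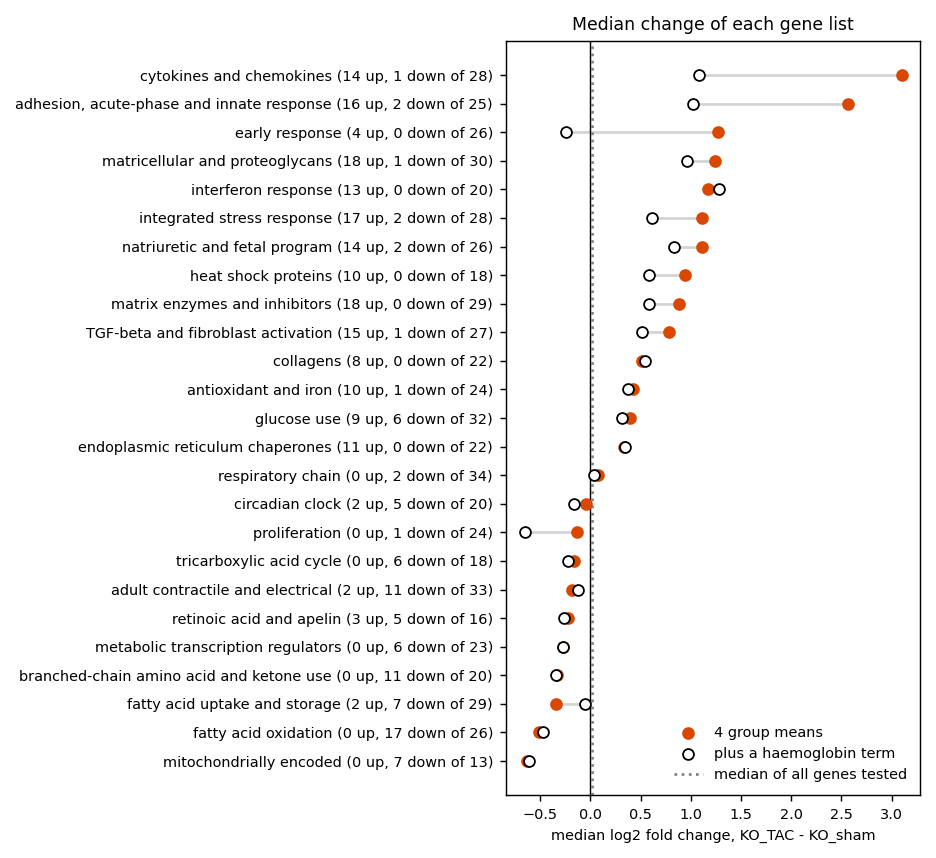
Median log2 fold change of each gene list (x axis) from the fit with 4 group means (filled) and with the haemoglobin term added (open), with the counts of members called beside each name. The matrix and fatty acid oxidation medians keep their side of 0 with the term, and the early response median moves from 1.27 to −0.24.

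The natriuretic and fetal list moved furthest among the muscle lists. Of its 26 members 14 rose and 2 fell, with a median log2 fold change of 1.11. Nppb, the B-type natriuretic peptide that the loaded ventricle secretes, was at 205, 131, 322 and 319 CPM in KO_sham 1 to 4 and at 849, 1292, 1090 and 783 CPM in KO_TAC 1 to 4. Every KO_TAC library exceeded every KO_sham library, by 2.04 ± 0.51, adjusted p = 0.0121 in edgeR. Nppa, the A-type peptide, was at 262, 1482, 103 and 445 CPM in KO_sham 1 to 4 and at 8749, 7087, 8692 and 4500 CPM in KO_TAC 1 to 4. It rose by 3.66 ± 1.11, adjusted p = 0.0271 in edgeR, and 3 of the 4 KO_TAC libraries reached those levels with Myl7 under 1 CPM. Acta1, skeletal muscle alpha-actin, a fetal heart isoform, was at 372, 534, 288 and 372 CPM in KO_sham 1 to 4 and at 1134, 5153, 3631 and 7206 CPM in KO_TAC 1 to 4. KO_TAC 1 was the lowest of the TAC hearts, and no library of one group entered the range of the other (3.45 ± 0.76, adjusted p = 0.00666 in edgeR).

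Myh7, the slow beta-myosin heavy chain, was at 752, 1046, 575 and 902 CPM in KO_sham 1 to 4 and at 1642, 5429, 8109 and 3444 CPM in KO_TAC 1 to 4. The groups did not overlap, and the rise was 2.51 ± 0.46, adjusted p = 0.00294 in edgeR. Its fast adult counterpart Myh6, at 22750, 30350, 24370 and 25220 CPM in KO_sham 1 to 4 and at 23100, 16120, 10730 and 18490 CPM in KO_TAC 1 to 4, fell by a smaller amount, with overlapping groups (−0.58 ± 0.17, adjusted p = 0.0242 in edgeR). Genes of the stretched sarcomere rose alongside: Ankrd1, a titin-associated repressor, by 2.34, Xirp2 by 2.16, the intermediate filament desmin (Des) by 1.60, the muscle filamin Flnc by 1.12 and Csrp3, a Z-disc protein, by 1.09 on the log2 scale. Rcan1, a target and feedback inhibitor of calcineurin, rose by 1.54. Mef2a and Myh7b were the 2 members that fell. With the haemoglobin term Nppb, Nppa, Acta1, Myh7 and Myh6 stood at 2.01, 2.99, 2.67, 1.77 and −0.60, without a call (adjusted p of 0.101 to 0.206 in edgeR). Of the list 1 member (Flnc) was called with it and the list's median was 0.83, beside 0.03 over all genes.

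Of 23 members of this list with a promoter in the RefSeq table (GRCm38.p6, 250 bases before to 50 after the start), 4 held a CArG box, the binding letters of serum response factor, on both strands alike since the box reads the same either way. That is 17.4%, beside 1.81% of all genes in the table. Acta1 and Fhl1, both higher in KO_TAC, were among them, as were Fhl2 and Myl7, which were not called. Of the 12 members with a promoter that rose, 2 thus held the box. The list was chosen by function with earlier results known, so its difference from all genes is not a result about these hearts. The Acta1 promoter is shown because Acta1 had the second largest rise of the list, with the box in capitals starting 73 bases before the start (chr8:123894726-123895025, minus strand, shown 5′ to 3′):
Acta1: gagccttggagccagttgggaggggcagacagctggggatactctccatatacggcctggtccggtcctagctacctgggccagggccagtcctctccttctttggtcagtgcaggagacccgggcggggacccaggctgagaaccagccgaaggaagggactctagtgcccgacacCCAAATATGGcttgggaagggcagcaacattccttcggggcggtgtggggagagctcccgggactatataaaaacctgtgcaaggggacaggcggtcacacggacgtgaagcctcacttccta
The match describes letters in this window and was not tested for binding.

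Adult contractile and electrical genes shifted the other way. Of 33 members 2 rose and 11 fell, with a median of −0.18. Atp2a2, the SERCA2 calcium pump that refills the sarcoplasmic reticulum, was at 12010, 15130, 11640 and 11160 CPM in KO_sham 1 to 4 and at 10460, 4080, 4530 and 7805 CPM in KO_TAC 1 to 4. It fell by 0.89 ± 0.24, adjusted p = 0.0169 in edgeR, and its inhibitor phospholamban (Pln) fell by 0.65. Kcnd2, a channel of the transient outward potassium current, was at 16.9, 27.3, 23.3 and 16.2 CPM in KO_sham 1 to 4 and at 12.2, 2.703, 2.17 and 6.19 CPM in KO_TAC 1 to 4. The KO_TAC libraries were all lower (−1.82 ± 0.50, adjusted p = 0.0171 in edgeR). The other repolarising channel genes Kcnj2, Kcnd3, Kcna5 and the accessory subunit Kcnip2 fell by 1.09, 0.93, 0.99 and 0.84 on the log2 scale. The L-type calcium channel Cacna1c, the ryanodine receptor Ryr2 and the beta-adrenergic receptor Adrb1 fell by 0.70, 0.53 and 0.67. The 2 risers were the calcium-binding protein Casq2 (0.58) and the Z-disc actinin Actn2 (0.40). Of the filament genes Tnnt2, Mybpc3, Actc1 and Ttn were not called, with log2 fold changes of 0.48, 0.36, 0.31 and −0.18. With the haemoglobin term Kcnj2 was the 1 member called, at −1.20 ± 0.29, adjusted p = 0.0479 in edgeR, the list's median was −0.13, and Atp2a2 and Kcnd2 stood at −0.86 and −1.65 (adjusted p = 0.141 in edgeR for both). The 10 cardiomyocyte markers summed to between 65760 and 70020 CPM in KO_sham and between 62180 and 76870 CPM in KO_TAC. Nppa, which rose, is among them and adds to the KO_TAC sums, so these do not show that the other members were unchanged. Of the 10 markers 2 rose and 2 fell.

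The matrix lists rose together. Matricellular proteins and proteoglycans, which organise collagen and bind growth factors, had 18 of 30 members higher and 1 lower, with a median of 1.24. Matrix enzymes and their inhibitors had 18 of 29 higher and none lower (median 0.89), collagens 8 of 22 higher and none lower (median 0.52), and TGF-beta and fibroblast activation genes 15 of 27 higher and 1 lower (median 0.79). These lists kept more calls with the haemoglobin term than the muscle lists did: 9, 6, 4 and 4 members were called higher with it, and none lower. Their medians with the term were 0.96, 0.59, 0.55 and 0.52. In the floxed hearts the 4 medians after TAC were 0.30, 0.22, 0.04 and 0.12, and no gene was called there in edgeR. In that comparison 1733 genes had an unadjusted p under 0.05, and DESeq2 called 175 and limma voom 0. The floxed TAC hearts were uneven. On each of the 4 lists the mean log2 CPM of FF_TAC 1 lay within the FF_sham range, and FF_TAC 2 to 4 lay above it. For the matricellular list FF_TAC 1 to 4 stood at 4.25, 4.85, 4.85 and 4.55, beside 3.87 to 4.38 in FF_sham.

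Ltbp2, a latent TGF-beta binding protein of microfibrils, was at 4.61, 4.803, 3.33 and 8.36 CPM in KO_sham 1 to 4 and at 30.5, 110.2, 122 and 75.6 CPM in KO_TAC 1 to 4. No library crossed between the groups, and the difference was 3.999 ± 0.50, adjusted p = 0.000526 in edgeR, or 3.56 ± 0.65, adjusted p = 0.0215 in edgeR with the haemoglobin term. Thbs4, a thrombospondin made by loaded heart and tendon, was at 10.7, 11.6, 5.41 and 8.68 CPM in KO_sham 1 to 4 and at 46.01, 121, 129.5 and 84.3 CPM in KO_TAC 1 to 4. It rose by 3.39 ± 0.40, adjusted p = 0.000386 in edgeR, and by 3.03 ± 0.49, adjusted p = 0.0139 in edgeR with the term. Comp, its cartilage relative, was at 2.86, 16.3, 3.02 and 14.6 CPM in KO_sham 1 to 4 and at 63.9, 132, 307 and 42.8 CPM in KO_TAC 1 to 4. KO_sham 4 and the library labelled KO_sham 2 were the highest sham hearts and stayed below the lowest TAC heart (3.90 ± 0.67, adjusted p = 0.00217 in edgeR, with the term 3.77 ± 0.83, adjusted p = 0.0397 in edgeR).

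Periostin (Postn), a marker of activated fibroblasts, was at 93.96, 55.8, 45.3 and 66.5 CPM in KO_sham 1 to 4 and at 141, 520.2, 640.2 and 617 CPM in KO_TAC 1 to 4. It rose by 2.87 ± 0.45, adjusted p = 0.00143 in edgeR, and was not called with the term (2.35 ± 0.60, adjusted p = 0.0604 in edgeR). Cilp, Mfap5, Bgn and Fbln2 rose by 2.83, 2.64, 1.63 and 1.29, and each kept its call with the term. Ccn2, connective tissue growth factor, rose by 2.50 and also kept it. Thbs2 was the matricellular gene that fell, by 0.89.

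Among collagens the fibril-associated Col12a1 was at 1.52, 1.95, 0.676 and 2.98 CPM in KO_sham 1 to 4 and at 8.82, 10.7, 16.5 and 13.99 CPM in KO_TAC 1 to 4. The groups did not overlap (2.81 ± 0.35, adjusted p = 0.000526 in edgeR, with the term 2.49 ± 0.46, adjusted p = 0.0218 in edgeR). Col8a2, Col8a1, Col16a1 and Col5a2 rose by 2.41, 2.09, 1.57 and 1.15, and the main fibrillar chains Col1a1 and Col1a2 by 0.80 and 0.79. Col3a1, the other abundant fibrillar collagen, was at 653, 143, 343 and 421 CPM in KO_sham 1 to 4 and at 499, 370.2, 332 and 612 CPM in KO_TAC 1 to 4. It was not called, with overlapping groups and 0.22 ± 0.32, adjusted p = 0.634 in edgeR, or 0.83 ± 0.42, adjusted p = 0.283 in edgeR with the term. The basement membrane chain Col4a1 rose by 0.53, a call lost in 7 of the 8 fits that left out 1 library.

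Of the 5 enzymes that crosslink collagen 4 rose. The lysyl oxidase Lox was at 7.15, 4.803, 4.06 and 4.02 CPM in KO_sham 1 to 4 and at 14.7, 42.05, 33.1 and 16.6 CPM in KO_TAC 1 to 4. All TAC hearts were above all sham hearts (2.40 ± 0.32, adjusted p = 0.000619 in edgeR, with the term 2.40 ± 0.43, adjusted p = 0.0215 in edgeR), and Loxl1, Loxl2 and Loxl3 rose by 1.03, 1.12 and 1.39, while Loxl4, at 0.999, was not called. P4ha1, which hydroxylates collagen prolines, and Mmp14, a membrane-bound matrix protease, rose by 1.30 and 1.29. Timp1, a protease inhibitor, was at 16.2, 4.01, 8.85 and 5.801 CPM in KO_sham 1 to 4 and at 42.9, 136, 174 and 63.1 CPM in KO_TAC 1 to 4. It rose by more than any other member of the list but Adamts4 (3.57 ± 0.65, adjusted p = 0.00282 in edgeR) and was not called with the term (2.74 ± 0.97, adjusted p = 0.146 in edgeR), while Timp3 and Timp4 were not called (−0.51 and −0.35).

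Of the TGF-beta ligands, Tgfb1, Tgfb2 and Tgfb3 rose by 1.42, 1.80 and 0.85, and the activin subunits Inhba and Inhbb by 1.99 and 1.41. The receptor Tgfbr1 rose by 0.41 and Tgfbr2 was not called (−0.16). The antagonists Fstl3 and Smad7 rose by 1.69 and 0.79. Meox1, a homeobox factor of activated cardiac fibroblasts, was at 24.1, 12.2, 23.00 and 23.5 CPM in KO_sham 1 to 4 and at 47.1, 78.4, 98.1 and 91.8 CPM in KO_TAC 1 to 4. It rose by 1.93 ± 0.28, adjusted p = 0.00102 in edgeR, and by 2.05 ± 0.40, adjusted p = 0.0279 in edgeR with the term. Fibroblast identity markers moved less: of 14, 4 rose (Pi16, Pcolce2, Col1a1 and Dcn), Pdgfra was at −0.40 without a call, and the summed level was 2284 to 3324 CPM in KO_sham and 3022 to 5165 CPM in KO_TAC. With the haemoglobin term 2 of the 14 were called higher, and the median moved from 0.23 to 0.06.

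**Figure D4:**
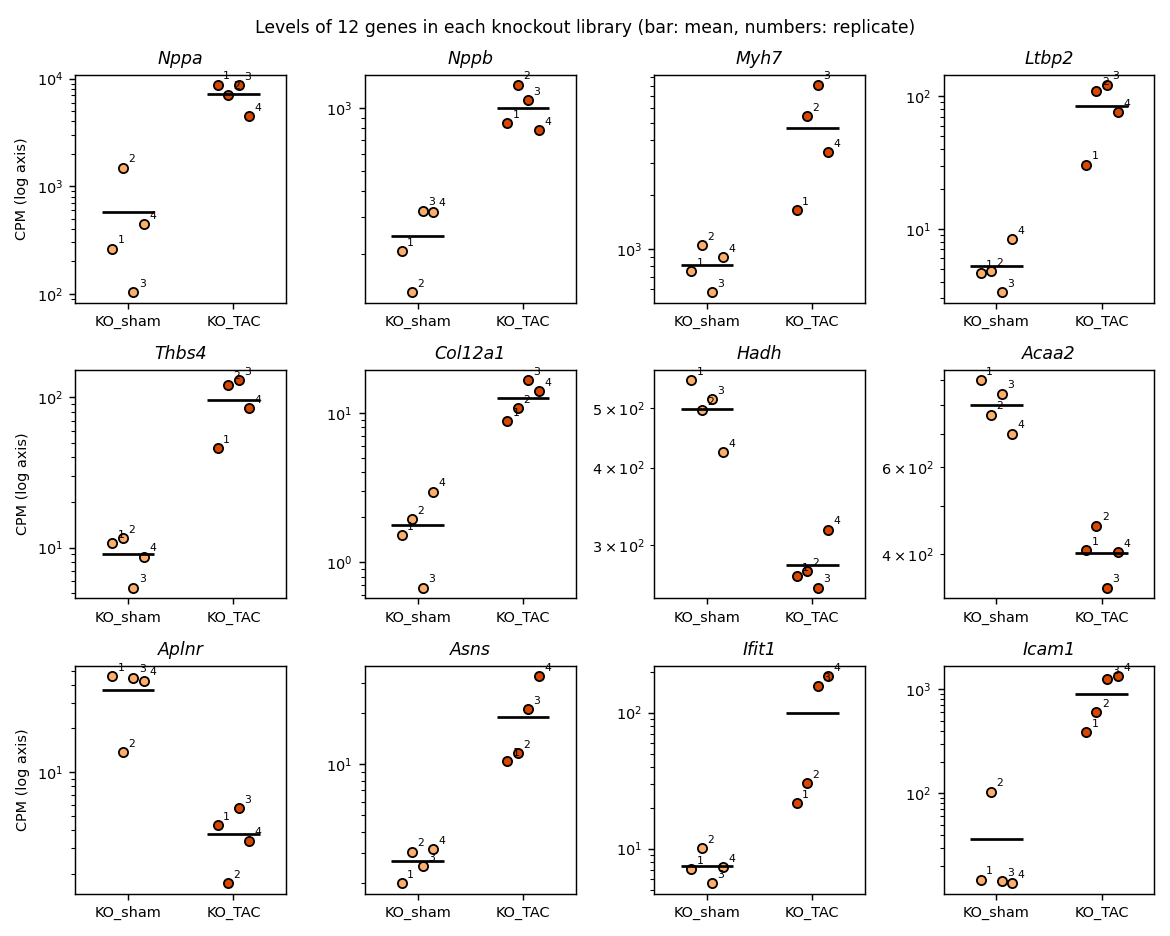
CPM (y axes, log scale) of 12 genes in the 4 KO_sham and 4 KO_TAC libraries, 1 point each with its replicate number, and a bar at the group mean. For Icam1 the library labelled KO_sham 2, at 104 CPM, lies toward the TAC hearts, while for Ltbp2, Thbs4, Col12a1, Hadh and Acaa2 it lies among the other sham hearts.

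Fatty acid oxidation genes fell. Of 26 members 17 were lower and none higher, with a median of −0.51, and 16 had groups that did not overlap. Hadh, the short-chain 3-hydroxyacyl-CoA dehydrogenase of the beta-oxidation cycle, was at 554, 496, 516 and 424 CPM in KO_sham 1 to 4 and at 267, 272, 256 and 317 CPM in KO_TAC 1 to 4. Every KO_TAC library was below every KO_sham library, and the fall was 0.84 ± 0.10, adjusted p = 0.000526 in edgeR, or −0.78 ± 0.13, adjusted p = 0.0176 in edgeR with the haemoglobin term. Acaa2, the thiolase that ends a turn of the cycle, was at 898, 765, 845 and 700.5 CPM in KO_sham 1 to 4 and at 407, 456, 342 and 403 CPM in KO_TAC 1 to 4. It fell by 0.997 ± 0.13, adjusted p = 0.000547 in edgeR, and with the term the log2 fold change was −0.83 ± 0.15, adjusted p = 0.0215 in edgeR. Ech1 and Acadvl, which act on unsaturated and very long chains, fell by 0.87 and 0.71 and also kept their calls with the term. Cpt2, the inner-membrane partner of Cpt1, fell by 0.69, the trifunctional protein subunits Hadha and Hadhb by 0.58 and 0.47, Acadm by 0.52 and the carnitine carrier Slc25a20 by 0.51. The electron carrier Etfa, Echs1 and Acads were among the 9 members not called (−0.28, −0.28 and −0.24). With the term 4 members were called lower and the median was −0.47. Without the library labelled KO_sham 2, 13 fell. In the floxed hearts the median after TAC was −0.12.

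Fewer genes of uptake and storage moved: 2 of 29 rose and 7 fell, with a median of −0.34, or −0.06 and 2 falls with the haemoglobin term. Acsl1, the main cardiac acyl-CoA synthetase, was at 739.5, 751, 737 and 609 CPM in KO_sham 1 to 4 and at 371, 298, 303 and 491 CPM in KO_TAC 1 to 4. All TAC hearts were lower (−0.96 ± 0.16, adjusted p = 0.00186 in edgeR, with the term −0.83 ± 0.19, adjusted p = 0.0457 in edgeR). Dgat2, which makes triglyceride, fell by 0.81, the transporter Cd36 by 0.62, and the thioesterases Acot1 and Acot2 by 2.20 and 0.79. Acsl5 and Dgat1 rose by 0.53 and 0.46.

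Among 23 metabolic regulators 6 fell and none rose, with a median of −0.28. Ppara was the 1 member called with the haemoglobin term, and the median was then −0.27. Ppara, the nuclear receptor that drives fatty acid genes, was at 10.6, 15.9, 13.8 and 13.3 CPM in KO_sham 1 to 4 and at 5.52, 6.46, 5.84 and 3.57 CPM in KO_TAC 1 to 4. The groups were apart by −1.33 ± 0.23, adjusted p = 0.00203 in edgeR, and with the term by −1.19 ± 0.27, adjusted p = 0.040 in edgeR. Its partner Rxra and the regulators Klf15, Esrrg, Rxrg and Perm1 fell by 0.65, 0.78, 0.57, 0.53 and 0.48. Ppargc1a, the PGC-1 alpha coactivator, was at 72.5, 72.7, 67.2 and 73.1 CPM in KO_sham 1 to 4 and at 71.9, 55.6, 42.3 and 36.3 CPM in KO_TAC 1 to 4. It was not called (−0.47 ± 0.17, adjusted p = 0.0562 in edgeR, with the term −0.43 ± 0.22, adjusted p = 0.289 in edgeR).

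Branched-chain amino acid and ketone genes had 11 of 20 members lower and none higher (median −0.34), and 6 members were called lower with the haemoglobin term, where the median was again −0.34. The branched-chain dehydrogenase subunits Bckdha, Bckdhb and Dbt fell by 0.76, 0.55 and 0.69. Ppm1k, the phosphatase that switches that complex on, fell by 0.98, whereas its kinase Bckdk was at −0.09 without a call. The ketone enzyme Bdh1 was at 0.77 without a call. In the tricarboxylic acid cycle 6 of 18 fell (median −0.17), led by Suclg2 at −0.56 and citrate synthase (Cs) at −0.49. None of the 18 was called with the haemoglobin term, and the median was −0.23.

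Glucose genes went both ways, with 9 of 32 higher and 6 lower and a median of 0.39. Under the haemoglobin term 1 was higher and 3 were lower, and the median was 0.32. Slc2a1, the glucose transporter GLUT1 of the fetal heart, was at 19.2, 25.7, 18.2 and 18.2 CPM in KO_sham 1 to 4 and at 41.7, 47.98, 39.8 and 47.4 CPM in KO_TAC 1 to 4. It rose by 1.12 ± 0.17, adjusted p = 0.00102 in edgeR and kept its call with the term (0.85 ± 0.18, adjusted p = 0.0363 in edgeR). The insulin-responsive transporter Slc2a4 fell by 0.45. The platelet-type phosphofructokinase Pfkp rose by 1.54 and the muscle type Pfkm fell by 0.38. Pfkfb1, which makes the phosphofructokinase activator fructose 2,6-bisphosphate, was at 10.1, 20.2, 11.4 and 8.26 CPM in KO_sham 1 to 4 and at 1.72, 1.88, 1.28 and 1.43 CPM in KO_TAC 1 to 4. It fell by 2.98 ± 0.48, adjusted p = 0.0016 in edgeR, with −2.84 ± 0.54, adjusted p = 0.0238 in edgeR under the term, and Pfkfb2 fell by 0.97, while Pfkfb3 rose by 2.31.

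Of 34 nuclear-encoded respiratory chain genes 2 fell, Ndufs1 (−0.46) and Sdha (−0.51), and none rose, with a median of 0.08, or 1 fall and 0.04 with the haemoglobin term. Mitochondrially encoded transcripts had 7 of 13 lower and none higher, with a median of −0.63. Among them mt-Co1 was at 77160, 85880, 84550 and 71620 CPM in KO_sham 1 to 4 and at 51070, 31790, 36970 and 64570 CPM in KO_TAC 1 to 4. It fell by 0.79 ± 0.17, adjusted p = 0.00638 in edgeR, and none of the 13 was called with the haemoglobin term, where the median was −0.61.

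Stress-response genes formed a further group that rose. The integrated stress response, in which phosphorylation of the initiation factor eIF2 alpha raises translation of ATF4, had 17 of 28 tested members higher and 2 lower (median 1.11). Under the haemoglobin term 4 were higher and the median was 0.62. Atf4 itself was at 55.5, 111, 62.8 and 57.2 CPM in KO_sham 1 to 4 and at 204, 219, 221 and 215 CPM in KO_TAC 1 to 4. All TAC hearts were higher and lay close together (1.58 ± 0.35, adjusted p = 0.00672 in edgeR, with the term 0.61 ± 0.17, adjusted p = 0.0718 in edgeR). Asns, asparagine synthetase, was at 1.98, 3.04, 2.498 and 3.14 CPM in KO_sham 1 to 4 and at 10.4, 11.6, 21.1 and 33.2 CPM in KO_TAC 1 to 4. It rose by 2.84 ± 0.50, adjusted p = 0.00241 in edgeR, with 1.79 ± 0.56, adjusted p = 0.105 in edgeR under the term. Nupr1, a stress-induced nuclear protein, was at 4.66, 11.9, 4.53 and 7.32 CPM in KO_sham 1 to 4 and at 47.3, 141, 133 and 54.8 CPM in KO_TAC 1 to 4. The rise was 3.73 ± 0.60, adjusted p = 0.00163 in edgeR, and 2.32 ± 0.50, adjusted p = 0.0385 in edgeR with the term.

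Gdf15, a secreted stress hormone, was at 1.98, 1.88, 4.06 and 4.08 CPM in KO_sham 1 to 4 and at 22.9, 17.1, 43.6 and 33.9 CPM in KO_TAC 1 to 4. It rose by 3.29 ± 0.65, adjusted p = 0.0040 in edgeR, but was not called with the term (1.97 ± 0.87, adjusted p = 0.229 in edgeR), and the mitochondrial folate enzyme Mthfd2 by 2.44. The amino acid transporter pair Slc7a5 and Slc3a2 rose by 1.97 and 1.09, the proline enzymes Pycr1 and Aldh18a1 by 1.16 and 0.83, and Trib3, an inhibitor of ATF4, by 1.21. Trib3, Slc3a2, Atf5 and Nupr1 were the 4 called with the term. Atf3 and Chac1, at 1.45 and 1.48, were not called, and neither was the serine pathway enzyme Shmt2 (0.21), while Phgdh, which starts that pathway, rose by 0.95 in the fit of all libraries and lost the call in 7 of the 8 fits that left out 1.

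The letters TGATGNAA, a composite site read by ATF4 with its partners, were searched on both strands of the same promoter windows. Of 27 list members with a promoter 9 held them, 33.3%, beside 4.51% of all genes in the table. The list was chosen by function with earlier results known, so this difference is not a result about these hearts. Among the 16 members with a promoter that rose, 4 held the letters: Asns, Nupr1, Pycr1 and Trib3. Asns, Nupr1 and Trib3 are shown, with the match in capitals, as the 3 with the largest rises of these 4. In Asns (chr6:7693160-7693459) the match lies 23 bases before the start on the gene's strand, in Nupr1 (chr7:126625421-126625720) 110 bases before it on the other strand, and in Trib3 (chr2:152344011-152344310) 14 bases after it on the other strand. All 3 genes lie on the minus strand and are shown 5′ to 3′:
Asns: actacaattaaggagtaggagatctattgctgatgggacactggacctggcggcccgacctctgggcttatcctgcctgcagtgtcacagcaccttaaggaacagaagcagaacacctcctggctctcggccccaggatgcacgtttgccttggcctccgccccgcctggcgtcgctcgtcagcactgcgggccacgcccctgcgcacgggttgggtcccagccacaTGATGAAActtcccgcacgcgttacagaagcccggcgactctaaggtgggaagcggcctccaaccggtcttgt
Nupr1: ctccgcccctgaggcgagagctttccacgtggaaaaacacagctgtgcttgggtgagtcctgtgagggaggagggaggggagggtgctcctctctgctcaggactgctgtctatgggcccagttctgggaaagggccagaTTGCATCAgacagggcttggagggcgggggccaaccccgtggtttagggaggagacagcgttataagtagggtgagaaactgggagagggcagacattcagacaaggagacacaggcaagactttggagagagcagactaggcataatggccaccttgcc
Trib3: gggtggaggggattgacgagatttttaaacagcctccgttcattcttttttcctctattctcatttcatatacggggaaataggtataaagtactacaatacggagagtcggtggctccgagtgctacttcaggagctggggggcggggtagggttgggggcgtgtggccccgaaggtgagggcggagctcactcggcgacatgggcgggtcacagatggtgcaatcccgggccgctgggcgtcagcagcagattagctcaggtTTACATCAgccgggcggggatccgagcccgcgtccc
The remaining holders, Atf3, Chac1, Vldlr, Fgf21 and Slc7a11, were not higher, the last pair being too low to test and Vldlr having fallen by 0.41. A match describes letters and was not tested for binding.

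Chaperones of the endoplasmic reticulum had 11 of 22 members higher and none lower, by small amounts (median 0.34). Creld2, P4hb and Manf rose by 0.98, 0.73 and 0.72, and Hspa5, the chaperone BiP, by 0.42, a call lost in 6 of the 8 fits that left out 1 library. None kept its call with the haemoglobin term, where the median was 0.34. Heat shock proteins had 10 of 18 higher and none lower (median 0.94), and 3 with the term (median 0.58). Hsp90aa1 was at 124, 312, 152 and 138 CPM in KO_sham 1 to 4 and at 518, 1264, 1098 and 563 CPM in KO_TAC 1 to 4. The library labelled KO_sham 2 was the highest sham heart and below every TAC heart (2.25 ± 0.41, adjusted p = 0.00268 in edgeR, with the term 1.36 ± 0.31, adjusted p = 0.041 in edgeR). Hsph1 and Hspb1 rose by 2.14 and 1.86 and kept their calls.

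Antioxidant and iron genes had 10 of 24 higher and 1 lower (median 0.42). The metallothioneins Mt1 and Mt2 rose by 1.40 and 2.62, Hmox1 by 1.38 and the autophagy receptor Sqstm1 by 1.10. The iron exporter Slc40a1 fell by 1.19. None of the 24 was called with the haemoglobin term, where the median was 0.37.

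Inflammatory genes rose by large amounts, and their calls and medians shifted with the haemoglobin term and without the library labelled KO_sham 2. Cytokines and chemokines had 14 of 28 members higher and 1 lower, with a median of 3.10. Without the library labelled KO_sham 2, 24 rose and the median was 4.87. Under the haemoglobin term 1 member was called, the fall of Cxcl12, and the median was 1.09. In the floxed hearts the median after TAC was 3.31, with haemoglobin low in the libraries labelled FF_TAC 2 and 3. Haemoglobin and early response levels moved with these values, and their part in the result was not tested.

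Cxcl10, a chemokine that draws T cells, was at 1.66, 11.2, 0.624 and 1.202 CPM in KO_sham 1 to 4 and at 24.8, 36.7, 127 and 161 CPM in KO_TAC 1 to 4. The library labelled KO_sham 2 stood above the other 3 sham hearts and below the TAC hearts (4.61 ± 1.07, adjusted p = 0.00868 in edgeR, with the term 2.60 ± 0.77, adjusted p = 0.094 in edgeR). Ccl2, which recruits monocytes, was at 4.84, 71.3, 5.203 and 2.87 CPM in KO_sham 1 to 4 and at 143, 286, 573 and 571 CPM in KO_TAC 1 to 4. It rose by 4.23 ± 1.37, adjusted p = 0.0353 in edgeR, a call lost in 6 of the 8 fits that left out 1 library and with the term (1.14 ± 0.71, adjusted p = 0.375 in edgeR). Csf2 was at 0, 0.0608, 0 and 0 CPM in KO_sham 1 to 4 and at 2.71, 8.11, 13.1 and 10.7 CPM in KO_TAC 1 to 4, so that 1 read in KO_sham set its level there and no fold is given. Cxcl12, the chemokine that holds progenitor cells in place, was at 176, 231, 204 and 222 CPM in KO_sham 1 to 4 and at 80.8, 95.5, 79.6 and 69.1 CPM in KO_TAC 1 to 4. It fell by 1.36 ± 0.23, adjusted p = 0.00229 in edgeR, with −1.02 ± 0.24, adjusted p = 0.0461 in edgeR under the term.

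Adhesion, acute-phase and innate genes had 16 of 25 higher and 2 lower (median 2.57, or 1.02 and 2 rises with the term). Icam1, which leukocytes grip on endothelium, was at 14.75, 104, 14.3 and 13.6 CPM in KO_sham 1 to 4 and at 387, 599.6, 1245 and 1343 CPM in KO_TAC 1 to 4. The library labelled KO_sham 2 lay between the other sham hearts and the TAC hearts. The rise was 4.62 ± 1.21, adjusted p = 0.015 in edgeR, and it was not called with the term (1.35 ± 0.74, adjusted p = 0.316 in edgeR). Acod1, which makes itaconate in activated macrophages, was at 0.0922, 0.7904, 0.05203 and 0 CPM in KO_sham 1 to 4 and at 4.83, 15.99, 32.4 and 35.1 CPM in KO_TAC 1 to 4. It rose by 6.63 ± 1.10, adjusted p = 0.00184 in edgeR and kept its call with the term (4.56 ± 0.98, adjusted p = 0.0383 in edgeR), as did P-selectin (Selp, 2.63 ± 0.53, adjusted p = 0.0301 in edgeR). Acod1 lay below 3 counts in KO_sham 1, 3 and 4, so the size of its rise is uncertain. Without the library labelled KO_sham 2 its log2 fold change was 8.59. Chil1, a chitinase-like protein, was at 0.0461, 0.182, 0 and 0.209 CPM in KO_sham 1 to 4 and at 3.55, 7.36, 9.68 and 0.655 CPM in KO_TAC 1 to 4. KO_TAC 4 was the lowest TAC heart and still above the sham hearts (5.56 ± 0.84, adjusted p = 0.0012 in edgeR, with the term 5.48 ± 1.42, adjusted p = 0.0618 in edgeR). Chil1 lay near or below 3 counts in every KO_sham library, so the size of its rise is uncertain too. Il1rl1, the receptor of interleukin-33, and Nos2 fell by 1.61 and 0.93.

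Of the 26 early response genes 4 rose, Fosl1, Maff, Myc and Ier3, near the share of 14.3% over all genes tested. The list median was 1.27. Without the library labelled KO_sham 2, 23 rose and the median was 3.91. Under the term none was called and the median was −0.24. Fos itself was at 3.23, 611, 1.72 and 2.51 CPM in KO_sham 1 to 4 and at 692, 104, 39.99 and 164 CPM in KO_TAC 1 to 4. The groups overlapped, with the library labelled KO_sham 2 among the TAC hearts (0.69 ± 1.65, adjusted p = 0.774 in edgeR), and without that library the log2 fold change was 6.64 ± 1.70 (adjusted p = 0.0173 in edgeR).

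The interferon response was uneven among the TAC hearts. Of 20 members 13 rose (median 1.17), and 5 had groups that did not overlap. Under the haemoglobin term Ifit1 was the 1 member called, and the median was 1.28. Ifit1, an interferon-induced RNA-binding protein, was at 7.05, 10.1, 5.57 and 7.32 CPM in KO_sham 1 to 4 and at 21.6, 30.3, 157 and 186 CPM in KO_TAC 1 to 4. KO_TAC 3 and 4 were the highest libraries, KO_TAC 1 and 2 lay nearer the sham hearts, and the library labelled KO_sham 2 was among the sham hearts. The rise was 3.72 ± 0.58, adjusted p = 0.00133 in edgeR, and 3.38 ± 0.74, adjusted p = 0.0393 in edgeR with the term. Summed over the list, KO_sham ran from 252.5 to 265.1 CPM and KO_TAC 1 to 4 stood at 365.1, 258.8, 921.9 and 1121 CPM. Mx1, Isg15, Ifit3 and Rsad2 rose by 3.11, 3.25, 2.29 and 2.01.

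Markers of immune cells did not move as a group. Of 18 macrophage markers 1 rose, Lgals3 (2.01), and 2 fell, Cd163 (−0.79) and the monocyte receptor Ccr2 (−2.88). Their summed level was 329.9 to 576.5 CPM in KO_sham and 435.5 to 493.4 CPM in KO_TAC. Of 12 neutrophil markers 3 were high enough to test and none was called, and of 14 lymphocyte markers 7 were tested and none was called. Lymphocyte markers summed to 34.56 CPM in KO_TAC 1 and to at most 9.997 CPM in the other 7 libraries, and neutrophil markers to 131.2 CPM in KO_TAC 1 and at most 8.879 CPM elsewhere. Of 8 red cell markers 4 fell, with a median of −4.43, which turned to 3.09 with the haemoglobin term. The set includes the haemoglobin genes whose sum defines that term, so these values are not a separate result.

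Endothelial markers fell in part, with 7 of 20 lower and none higher (median −0.22, or −0.28 and 1 fall with the term). Aplnr, the apelin receptor of endothelium, was at 45.9, 13.7, 44.6 and 42.5 CPM in KO_sham 1 to 4 and at 4.34, 1.73, 5.67 and 3.39 CPM in KO_TAC 1 to 4. Its lowest sham level, in the library labelled KO_sham 2, was above every TAC heart. The fall was 3.26 ± 0.57, adjusted p = 0.00235 in edgeR, and −1.62 ± 0.33, adjusted p = 0.0301 in edgeR with the term. Kdr, the main VEGF receptor, was at 154, 173, 195 and 213 CPM in KO_sham 1 to 4 and at 99.3, 55.2, 61.5 and 83.4 CPM in KO_TAC 1 to 4. It fell by 1.30 ± 0.24, adjusted p = 0.00308 in edgeR, with −0.95 ± 0.26, adjusted p = 0.0743 in edgeR under the term. Cdh5, Tek and Tie1 fell by 0.56, 0.55 and 0.33, while Pecam1 and Vwf were not called (−0.03 and 0.03, values whose sign changed between settings). Of 15 smooth muscle and pericyte markers Abcc9, Kcnj8 and Notch3 fell by 1.39, 1.02 and 0.89, and Des, which cardiomyocytes also make, was the 1 that rose. Adipocyte, mesothelial, and Schwann and neuron markers (7, 7 and 6 tested) had none called, and of 9 atrial markers tested Nppa was the 1 called.

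In the retinoic acid and apelin list 3 of 16 rose and 5 fell (median −0.22, or −0.27 and 2 falls with the haemoglobin term). Cyp26b1, which breaks down retinoic acid, was at 5.35, 33.3, 5.203 and 4.49 CPM in KO_sham 1 to 4 and at 1.72, 1.05, 0.556 and 1.07 CPM in KO_TAC 1 to 4. The highest level was in the library labelled KO_sham 2, away from the TAC hearts, and the fall was 3.43 ± 0.80, adjusted p = 0.00899 in edgeR, or −3.88 ± 0.82, adjusted p = 0.0358 in edgeR with the term. The retinoic acid synthesising enzymes Aldh1a1 and Aldh1a3 rose by 0.99 and 0.91. The aquaglyceroporin Aqp7 was at 28.03, 8.15, 29.97 and 23.4 CPM in KO_sham 1 to 4 and at 6.11, 3.45, 2.503 and 2.62 CPM in KO_TAC 1 to 4. It fell by 2.60 ± 0.52, adjusted p = 0.00411 in edgeR, with −0.999 ± 0.28, adjusted p = 0.0764 in edgeR under the term, and Aqp4 fell by 3.38.

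The circadian clock list had 2 of 20 members higher and 5 lower (median −0.04). Those that fell were output genes and late repressors: Hlf, Per3, Dbp, Tef and Nr1d2, by 1.34, 1.02, 1.01, 0.79 and 0.70. With the haemoglobin term no member was called and the median was −0.16. Without the library labelled KO_sham 2 none of these falls was called, 4 members were called higher, and the median turned to 0.24. The time of day of collection is not given in the sources used here. Of 24 proliferation genes Cenpf, a kinetochore protein, was the 1 called. It was at 18.95, 45.9, 42.1 and 24.7 CPM in KO_sham 1 to 4 and at 5.52, 1.35, 4.06 and 6.25 CPM in KO_TAC 1 to 4. All TAC hearts were lower, and it fell by 2.92 ± 0.52, adjusted p = 0.00245 in edgeR, with −3.25 ± 0.59, adjusted p = 0.0215 in edgeR under the term, where the list's median moved from −0.13 to −0.66.

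By the naming rule, the largest rises without overlap of the groups also included Ereg, Ptx3, Cxcl3, Rnd1 and Bcl2a1a. Ereg, an epidermal growth factor receptor ligand, was at 0.277, 0.0608, 0.312 and 0 CPM in KO_sham 1 to 4 and at 3.45, 4.43, 10.1 and 4.47 CPM in KO_TAC 1 to 4. KO_TAC 3 was the highest library (5.01 ± 0.72, adjusted p = 0.00102 in edgeR, with the term 4.30 ± 0.99, adjusted p = 0.0438 in edgeR). Ptx3, Cxcl3, Rnd1, Fosl1 and Bcl2a1a rose by 4.81, 4.90, 4.81, 4.93 and 4.61, and none of the 5 kept its call with the term. Bcl2a1a is uncertain, since it has near-identical copies among which reads can be split.

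Rises that held with the term and in all 8 fits that left out 1 library further included Tubb3, a tubulin best known from neurons, at 1.52, 1.28, 2.03 and 1.72 CPM in KO_sham 1 to 4 and at 14.5, 13.2, 18.4 and 4.76 CPM in KO_TAC 1 to 4. It rose by 2.95 ± 0.34, adjusted p = 0.000381 in edgeR, with 3.33 ± 0.46, adjusted p = 0.00968 in edgeR under the term, the smallest adjusted p of the rises named by that rule. Serpinb1c rose by 4.30 and the interferon-induced Oasl1 by 3.46. Of the falls, Gpr22, an orphan receptor of heart and brain, was at 40.02, 24.3, 35.5 and 34.6 CPM in KO_sham 1 to 4 and at 4.29, 6.76, 7.23 and 5.42 CPM in KO_TAC 1 to 4. All TAC hearts were lower (−2.51 ± 0.28, adjusted p = 0.000381 in edgeR, with the term −1.96 ± 0.26, adjusted p = 0.00968 in edgeR). Lgals4, a galectin, was at 65.7, 86.2, 74.9 and 62.9 CPM in KO_sham 1 to 4 and at 17.6, 15.99, 10.2 and 12.3 CPM in KO_TAC 1 to 4. It fell by 2.37 ± 0.35, adjusted p = 0.00102 in edgeR, with −2.02 ± 0.36, adjusted p = 0.0215 in edgeR under the term. Klhl33, Gal3st2c, Abca12 and Gm34302 fell by 1.96, 2.41, 1.76 and 1.97, and Gm47644, antisense to Pln, by 1.99. Kcnv2, a potassium channel subunit, Mme, the protease neprilysin that cuts natriuretic peptides, and Lrrc15 fell by 2.56, 2.33 and 2.27, and Lrrc15 kept its call with the term.

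Whether the response to TAC differed between knockout and floxed hearts was tested as an interaction, the log2 fold change in knockout hearts minus that in floxed hearts. It was called for 7 genes (0.0449%), 4 with the higher and 3 with the lower value in knockout hearts, and 2049 genes had an unadjusted p under 0.05. Gene positions are those of GENCODE M21 on GRCm38. Eepd1, a DNA repair nuclease (chr9:25481547-25604110), was at 20.6, 21.7, 23.3 and 24.5 CPM in KO_sham 1 to 4 and at 12.02, 11.3, 10.9 and 11.6 CPM in KO_TAC 1 to 4 and at a mean of 26.96 ± 3.31 CPM in FF_sham and 26.4 ± 2.41 CPM in FF_TAC (mean ± SD, n = 4) in the floxed hearts. KO_TAC was the 1 group that stood apart, and the difference between genotypes was called (interaction −0.95 ± 0.14, adjusted p = 0.0493 in edgeR). Vat1, a vesicle membrane protein (chr11:101458745-101466230), was at 44.5, 45.05, 40.6 and 47.2 CPM in KO_sham 1 to 4 and at 76.4, 77.6, 91.5 and 72.95 CPM in KO_TAC 1 to 4 and at 42.1 ± 2.67 CPM in FF_sham and 39.4 ± 2.81 CPM in FF_TAC (mean ± SD, n = 4). The 4 KO_TAC libraries were the highest of all 16 (interaction 0.94 ± 0.13, adjusted p = 0.0344 in edgeR). Ecm1, extracellular matrix protein 1 (chr3:95734147-95739569), was at 38.9, 46.9, 36.8 and 43.7 CPM in KO_sham 1 to 4 and at 88.4, 95.1, 106 and 69.7 CPM in KO_TAC 1 to 4 and at 36.1 ± 5.56 CPM in FF_sham and 33.2 ± 4.86 CPM in FF_TAC (mean ± SD, n = 4) (interaction 1.24 ± 0.21, adjusted p = 0.0493 in edgeR).

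Map1a, a microtubule-associated protein (chr2:121289600-121310832), was at 7.56, 8.998, 7.54 and 12.1 CPM in KO_sham 1 to 4 and at 22.8, 26.4, 30.2 and 22.3 CPM in KO_TAC 1 to 4 and at a mean of 9.17 ± 1.94 CPM in FF_sham and 7.78 ± 1.82 CPM in FF_TAC (mean ± SD, n = 4) in floxed hearts (interaction 1.73 ± 0.28, adjusted p = 0.0493 in edgeR). Slc37a1, a sugar-phosphate exchanger (chr17:31286792-31350739), was at 10.9, 11.5, 11.6 and 13.1 CPM in KO_sham 1 to 4 and at 19.01, 17.6, 19.8 and 16.4 CPM in KO_TAC 1 to 4 and at 13.99 ± 1.74 CPM in FF_sham and 10.6 ± 1.41 CPM in FF_TAC (mean ± SD, n = 4) (interaction 1.03 ± 0.17, adjusted p = 0.0493 in edgeR). A pair of genes fell in knockout hearts to low levels in KO_TAC, near the detection limit for Helt. Helt, a transcription repressor (chr8:46292039-46294671), was at 0.968, 1.398, 2.29 and 1.88 CPM in KO_sham 1 to 4 and at 0.197, 0.225, 0.0556 and 0.298 CPM in KO_TAC 1 to 4 and at 1.55 ± 0.208 CPM in FF_sham and 1.51 ± 0.141 CPM in FF_TAC (mean ± SD, n = 4) (interaction −3.01 ± 0.48, adjusted p = 0.0493 in edgeR). Nt5c1a, a muscle nucleotidase (chr4:123201504-123216275), was at 3.04, 3.405, 3.07 and 3.501 CPM in KO_sham 1 to 4 and at 0.6896, 0.375, 0.222 and 0.476 CPM in KO_TAC 1 to 4 and at 1.79 ± 0.456 CPM in FF_sham and 2.99 ± 1.73 CPM in FF_TAC (mean ± SD, n = 4) (interaction −3.59 ± 0.57, adjusted p = 0.0493 in edgeR). None of the 7 interactions was called with the haemoglobin term or with the replicate number as a block. Leaving out 1 library at a time gave no interaction call in 10 of 16 fits, namely those without FF_sham 2, 3 or 4, FF_TAC 1 or 4, KO_sham 1, 2 or 3, or KO_TAC 2 or 3. It gave 2 without FF_sham 1 or KO_sham 4, 6 and 9 without FF_TAC 2 and 3, 102 without KO_TAC 4 and 215 without KO_TAC 1. In the other matrix and metabolic genes described, the response was not shown to differ between genotypes: the interaction was 2.72 ± 0.66 (adjusted p = 0.111 in edgeR) for Ltbp2, 2.09 ± 0.53 (adjusted p = 0.126 in edgeR) for Thbs4, −0.62 ± 0.15 (adjusted p = 0.108 in edgeR) for Hadh and 1.02 ± 0.69 (adjusted p = 0.537 in edgeR) for Nppb.

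**Figure D5:**
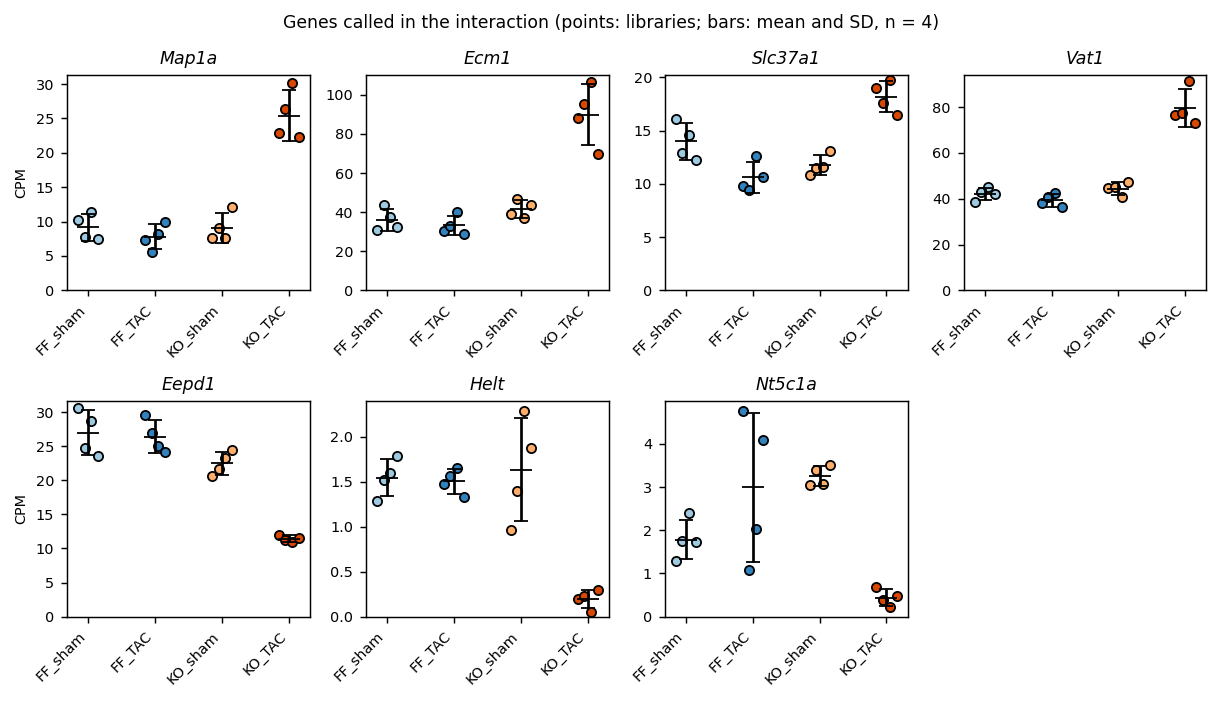
CPM (y axes) of the 7 genes called in the interaction, in FF_sham, FF_TAC, KO_sham and KO_TAC, 1 point per library, with the mean and SD (n = 4 per group). In Vat1, Ecm1 and Map1a the KO_TAC points lie above the other groups, and in Eepd1 and Helt below them.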

How the data were processed

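Gene counts came from the authors' deposited table of whole-number counts per gene and library. Per the submitters' processing notes, HISAT2 2.1.0, featureCounts and Subread 1.5.1 were used with GRCm38, and the annotation release and strand setting are not given in the sources used here. Of 55487 identifiers 55141 matched a symbol in GENCODE M21, and the rest held 0.0192% of counts. Groups came from the labels, and every column was mapped to a sample.

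The 16 libraries of the floxed cohort were fitted with 1 mean per group by edgeR 4.0.16 in R 4.3.3 (quasi-likelihood F test, TMM, filterByExpr, Benjamini-Hochberg over 15596 genes, 2-sided). CPM used TMM-scaled totals, except haemoglobin sums and marker totals. The method was tested on simulated data with known changes. The simulation gave every gene the same spread and held no haemoglobin classes or outlying libraries. It therefore does not show how the method handles such libraries. Depth was 14839758 to 20734227 counts per knockout library, so that 3 counts were worth 0.138 to 0.225 CPM. Alternatives were DESeq2 1.42.0, limma 3.58.1 voom with sample weights, RLE factors, no filter or a mean of at least 5 CPM, other sets of libraries, a replicate block, a haemoglobin term (summed haemoglobin under 100 CPM), leaving out each library and, added after seeing the data, the haemoglobin-low libraries alone. The members and gene lists were chosen with earlier results of these data known.

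Named genes were Cpt1a, members of the lists, the genes called in the interaction, and genes chosen by size. The first was the 12 largest rises and 12 largest falls among called genes whose higher group averaged 5 CPM or more and whose libraries did not overlap. The second was the 10 largest of each among genes that also kept their call with the haemoglobin term and without each knockout library. A pair of genes counted among these and the lists are not reported here by name.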

Additional observations from a re-analysis of the deposited data

Results flagged for a closer look

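In 61 of 496 comparisons of 1 knockout library with the other 3 of its group, over the named genes and the lists, the highest or lowest library lay far from the rest of its group by Dixon's test. Dixon's test would flag about 1 in 20 for independent, normally distributed values. The genes examined move together and were chosen with earlier results known, so the count was not tested against chance. The library labelled KO_sham 2 held 36 of them. It was the highest sham heart for 3 lists, with a mean log2 CPM of 8.64 for heat shock proteins, 3.49 for cytokines and chemokines and 7.2 for early response genes. Its CPM, given in parentheses, was the highest of the sham hearts for Acod1 (0.79), Adamts4 (16.8), Bcl2a1a (0.73), Ccl2 (71.3), Csf2 (0.0608), Cxcl10 (11.2), Cxcl3 (0.851), Icam1 (104), Ptx3 (12.2), Rnd1 (62) and Selp (8.27). Among early response genes it was so for Atf3 (388), Fos (611), Ier3 (109), Maff (51.7) and Myc (39.2), and among genes of the integrated stress, antioxidant and heat shock lists for Atf4 (111), Hmox1 (42), Hsp90aa1 (312), Hspb1 (394) and Slc3a2 (48.8). The same held for Abca12 (12.4), Cpt1a (46.3), Cyp26b1 (33.3), Gm47644 (38.7), Loxl4 (2.68), Nr1d2 (148), Pfkfb3 (38.5), Pfkm (1160) and Slc2a1 (25.7). It was the lowest sham heart for Aplnr (13.7), Ifit3 (8.57) and Meox1 (12.2). Its haemoglobin, at 1.4 CPM, was the lowest of the 4 as well, and the part of that in these values was not tested.

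For the other libraries, with CPM again in parentheses, KO_sham 1 was the highest sham heart for proliferation genes (mean log2 CPM 1.65) and for Col8a1 (37.3), and the lowest for Flnc (322). KO_sham 3 was the lowest for Bgn (194), Ppargc1a (67.2), Tgfbr1 (14.6) and Thbs2 (19.3). KO_sham 4 was the lowest for tricarboxylic acid cycle genes (mean log2 CPM 9.13) and for Acsl1 (609) and Ech1 (915), and the highest for Col8a2 (1.67). KO_TAC 1, the library with atrial transcripts, was the highest TAC heart for Abca12 (2.96), Bckdhb (33.1), Ccr2 (2.96), Kcnv2 (3.25), Myl7 (3150) and Ppm1k (63.7) and the lowest for Cilp (65.7). KO_TAC 2 was the highest for Ier3 (344) and Timp4 (49.6) and the lowest for Pycr1 (1.95). KO_TAC 3 was the highest for Atf5 (122) and Ereg (10.1), and KO_TAC 4 for Col4a1 (765) and Kcnj2 (26.9).

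The response to TAC differed between knockout and floxed hearts, by the interaction test in edgeR, for Slc37a1 (1.03), Map1a (1.73), Ecm1 (1.24), Vat1 (0.94), Eepd1 (−0.95), Helt (−3.01) and Nt5c1a (−3.59), values being log2 differences of the 2 fold changes. None was called with the haemoglobin term or the replicate block, and 10 of the 16 fits that left out 1 library called none.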

How the results depend on the processing

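Of 4031 genes called between KO_TAC and KO_sham, the count was within 1.5 times with RLE factors (4046), no filter (3167), a mean of at least 5 CPM (3447), DESeq2 (4812) and all 30 libraries (4425). It was 8336 with limma voom, 2327 with the knockout libraries alone, 273 with the haemoglobin term and 1 in the 7 haemoglobin-low libraries, where 1 sham library is left, is assumed to vary like the other groups, and 2004 genes had an unadjusted p under 0.05. Leaving out 1 knockout library gave 1956 (without KO_TAC 3) to 6441 (without KO_TAC 1). The share of calls that were higher was 55.4%, 56.7% with RLE and 56.4% with DESeq2. The 7 interaction calls became 17 without a filter, 2 at 5 CPM, 377 with DESeq2, 2930 with voom and 0 with the haemoglobin term, and 0 to 215 when 1 library was left out. Of 196 named genes called, 71 kept their call with the haemoglobin term and 1 in the haemoglobin-low libraries, and none changed sign under any alternative. The cause of these differences was not tested.

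The replicate numbers were not found to pair the samples: deviations of same-numbered KO_sham and KO_TAC libraries correlated at −0.353, −0.211, 0.177 and −0.208 across genes. With the replicate number as a block 836 genes were called among the knockout libraries, and 103 of the 196 named genes kept their call. With the block within each genotype 0 interactions were called.

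Genes that were not called changed sign as follows, in log2 fold change. With the haemoglobin term Atf3 was at −0.42, Fos at −0.90, Fhl2 at 0.01 and Vwf at −0.02, and in the haemoglobin-low libraries alone these 4 were at −0.51, −1.31, 0.26 and −0.60. With voom Col3a1 was at −0.054, Fhl2 at 0.091 and Myl7 at −2.39, and with the replicate block Myl7 was at −5.04. Leaving out 1 library gave ranges of −0.069 to 0.581 for Col3a1, −0.238 to 0.112 for Fhl2, −0.589 to 6.637 for Fos, −8.995 to 2.58 for Myl7, −0.141 to 0.100 for Pecam1 and −0.184 to 0.305 for Vwf. Genes near or below 3 counts in most libraries of a group are limited by depth there. Examples are Acod1, Chil1, Csf2, Cxcl3 and Fosl1 in KO_sham and Helt in KO_TAC. Nt5c1a was low in KO_TAC but above 3 counts in each library.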

Other observations

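The position of the library labelled KO_sham 2 was computed for each of the 4031 called genes, on a scale where 0 is the mean of the other 3 sham hearts and 1 the mean of the TAC hearts. Its median was −0.02, and for 395 genes (9.8%) the library lay past 0.5, nearer to the TAC hearts. These genes were called with that library among the sham hearts, which lowers the share of genes where it lies near the TAC hearts. Of the 26 early response genes, 4 were called higher with it and 23 without it. The median and the share therefore do not describe where the library stands over all genes that respond.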
